A study of Mus musculus with 29 samples.

Results

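Open chromatin was compared between OFF bipolar cells (OFF-BC) and blue cones of the adult mouse retina by ATAC-seq, in which a transposase inserts sequencing adapters into accessible DNA. The comparison used 4 libraries, 2 of each population, of the 29 samples in the series, chosen by their labels, and all 110715 regions of the authors' table, of which 108448 passed a filter on low counts and were tested. OFF-BC were sorted at postnatal days 42 and 46 from *Otx2*-GFP+/-; *Grm6*-YFP+/+ mice, as cells with GFP and without YFP, and were sorted a second time, since dim photoreceptors lie next to them in the sort. These mice are heterozygous for GFP at the *Otx2* locus, and YFP is driven by the *Grm6* promoter, which is active in ON bipolar cells. Each OFF-BC library pooled the retinas of a male and a female mouse. Blue cones were photoreceptors sorted once at day 56 from *Nrl*-eGFP;*Nrl*KO mice and came from an earlier study. Photoreceptors that lack *Nrl* develop with features of cones that express the short-wavelength opsin, so that these cells stand in for blue cones and are not cones of a wild-type retina. Cell class, genotype, age, sort and study differ together between the groups and cannot be told apart. RNA-seq of the same populations (3 libraries each, OFF-BC at days 42, 43 and 48, blue cones at day 56) gave expression. ATAC-seq of 4 more populations, 2 libraries each and each sorted once, gave further levels. ON bipolar cells (ON-BC) came from mice of the OFF-BC genotype at days 42 and 46. All bipolar cells sorted by *Otx2*-GFP alone (pan-BC) came from mice of days 44 and 43 that the labels give the same genotype and the study's table lists without *Grm6*-YFP. Rods from *Nrl*-eGFP mice and green cones from *Opn1mw*-GFP mice were of day 56.

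Photoreceptors turn light into a graded release of glutamate, and bipolar cells pass this signal to the inner retina. OFF bipolar cells respond through ionotropic glutamate receptors of the kainate and AMPA types, while ON bipolar cells use the metabotropic receptor encoded by *Grm6*. Both classes arise from *Otx2*-expressing precursors and use related homeodomain factors. CRX and OTX2 carry a lysine at residue 50 of the homeodomain (K50) and prefer TAATCC. Factors with glutamine at that position (Q50), such as VSX1, prefer TAATTA or TAATTG. Bipolar cells also express basic helix-loop-helix (bHLH) factors such as NEUROD4 and BHLHE22, which bind E-boxes.

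The sequences of 8 regions show what lay under the largest differences. They were taken, outside exons, from the regions that led each direction, by size among distal regions and by size among regions whose nearest gene changed the same way in RNA-seq. Bases are from GRCm38, plus strand, and each region spans 201 bases as the authors' table gives it. Capitals mark TAATCC (K50), TAATTA or TAATTG (Q50) and 3 E-boxes (CAGATG, the palindrome CAGCTG and the further palindrome CATATG) on either strand. The first 4 were higher in OFF-BC and lie at chr12:16151170-16151370 (intergenic, nearest gene *Trib2*), chr3:70482609-70482809 (intergenic, *Gm6634*), chr9:14623314-14623514 (intergenic, *Amotl1*) and chr7:18949937-18950137 (intron, *Nova2*).
The last 4 were higher in blue cones and lie in introns at chr2:52444227-52444427 (nearest gene *A430018G15Rik*), chr9:104865191-104865391 (*Mrpl3*), chr13:95244990-95245190 (*Pde8b*) and chr9:65304363-65304563 (*Clpx*).
Trib2: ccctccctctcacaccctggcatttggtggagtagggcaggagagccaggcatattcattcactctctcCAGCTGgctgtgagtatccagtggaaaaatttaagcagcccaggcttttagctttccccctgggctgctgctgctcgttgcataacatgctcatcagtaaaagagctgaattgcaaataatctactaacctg
Gm6634: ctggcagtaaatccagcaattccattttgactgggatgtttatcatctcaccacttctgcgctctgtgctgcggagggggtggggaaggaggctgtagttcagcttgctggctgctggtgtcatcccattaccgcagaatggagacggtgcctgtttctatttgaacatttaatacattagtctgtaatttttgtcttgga
Amotl1: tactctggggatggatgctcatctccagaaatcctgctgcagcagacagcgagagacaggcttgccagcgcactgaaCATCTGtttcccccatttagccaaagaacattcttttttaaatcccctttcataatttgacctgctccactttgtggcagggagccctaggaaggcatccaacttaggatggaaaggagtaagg
Nova2: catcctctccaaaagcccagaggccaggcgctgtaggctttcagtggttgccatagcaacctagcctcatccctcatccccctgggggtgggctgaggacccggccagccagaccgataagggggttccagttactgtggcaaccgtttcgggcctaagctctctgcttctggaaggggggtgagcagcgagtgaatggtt
A430018G15Rik: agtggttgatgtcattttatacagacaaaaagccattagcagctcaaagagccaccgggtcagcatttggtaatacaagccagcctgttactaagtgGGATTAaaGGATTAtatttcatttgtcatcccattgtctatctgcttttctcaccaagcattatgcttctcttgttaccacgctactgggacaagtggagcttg
Mrpl3: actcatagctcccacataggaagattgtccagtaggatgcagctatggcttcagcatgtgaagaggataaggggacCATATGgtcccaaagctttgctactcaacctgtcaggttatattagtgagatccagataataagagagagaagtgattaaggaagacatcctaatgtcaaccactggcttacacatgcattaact
Pde8b: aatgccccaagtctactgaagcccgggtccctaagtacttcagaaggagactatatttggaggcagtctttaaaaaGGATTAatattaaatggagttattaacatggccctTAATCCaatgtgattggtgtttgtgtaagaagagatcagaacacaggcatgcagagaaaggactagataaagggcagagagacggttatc
Clpx: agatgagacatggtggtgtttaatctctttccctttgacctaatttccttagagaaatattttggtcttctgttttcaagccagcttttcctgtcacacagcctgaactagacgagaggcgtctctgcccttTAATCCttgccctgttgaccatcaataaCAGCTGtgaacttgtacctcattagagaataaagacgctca
None of the 4 regions higher in OFF-BC held TAATCC, and 2 of them held an E-box. Of the 4 regions higher in blue cones, 3 held TAATCC, with 2 copies in *A430018G15Rik* and 2 in *Pde8b*. Those of *Mrpl3* (CATATG) and *Clpx* (CAGCTG) held an E-box as well, so that E-boxes did not separate these few regions. Over all tested regions, TAATCC was in 21.8%, CAGATG in 22.5%, CAGCTG in 18.2% and CATATG in 3.5%.

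Values are normalized counts, that is, reads in a region divided by the size factor of the library. The OFF-BC libraries held 4498372 and 5723557 counted reads and the blue cone libraries 4572550 and 8058443. Replicates correlated at r = 0.866 (OFF-BC) and 0.92 (blue cones) over regions on the log2 scale, and differed by more than the counting of reads gives (chi-square per region 3.64 and 2.33, where counting alone gives 1). Fold changes are on the scale of log2(normalized count + 1), which understates changes of weak regions, and a region was called where limma's test against a log2 fold change of 1 gave an adjusted p below 0.05. Genes were called in the same way in RNA-seq, 21.8% of 14024 higher in OFF-BC and 13.7% in blue cones. Sources used here do not state more on the origin of the blue cone replicates, so that their spread may be technical.

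More regions were called higher in OFF-BC than in blue cones. Of 108448 regions, 18075 (16.7%) were called higher in OFF-BC and 3383 (3.12%) higher in blue cones, so that 84.2% of calls were toward OFF-BC. The size of this imbalance depended on the scaling of the libraries and on the test. With another scaling, calls toward OFF-BC made up 55.4% after quantile normalization (9486 against 7639) and 56.4% after centring each library within bins of GC content (10305 against 7982). With another test they were 72.3% for edgeR on counted reads, which scales the libraries anew as well (22590 against 8671), and 72.4% when the same values were tested against 0 (33344 against 12722). The median difference over all regions was 0.37 (log2, OFF-BC minus blue cones), and moved to 0.16 with TMM scaling, 0.53 with size factors from promoters, -0.10 with quantile normalization and -0.07 with GC centring. Every called region had non-overlapping groups. Over all tested regions, called or not, both OFF-BC libraries lay above both blue cone libraries in 45.1% and below them in 28.1%. Among called regions with the authors' scaling, differences were larger toward OFF-BC, with a median of 3.64 (log2) against 2.76 toward blue cones. The call itself chose these regions, and scaling shifts both medians. Quantile normalization, for example, moved the median over all regions from 0.37 to -0.10. Whether the gap between the medians of called regions holds under another scaling was not tested. Of the regions higher in OFF-BC, 4010 had no read in either blue cone library, and 202 of those higher in blue cones had none in either OFF-BC library.

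Promoters, defined by a region centre at most 1000 bp before or 100 bp after a transcription start, differed less than distal regions. Among 16495 promoters, 7.16% were higher in OFF-BC and 1.52% in blue cones, with a median difference of -0.13. Among 91953 distal regions the shares were 18.37% and 3.41%, with a median of 0.54. The X chromosome had the largest share higher in OFF-BC (28.66% of 2467 regions). On chromosome Y, 24 regions were tested, with 2 higher in OFF-BC, 0 in blue cones and a median difference of -0.05. The sex of the mice behind the blue cone libraries is not given in the sources used here, and a part of sex was not tested.

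**Figure D1:**
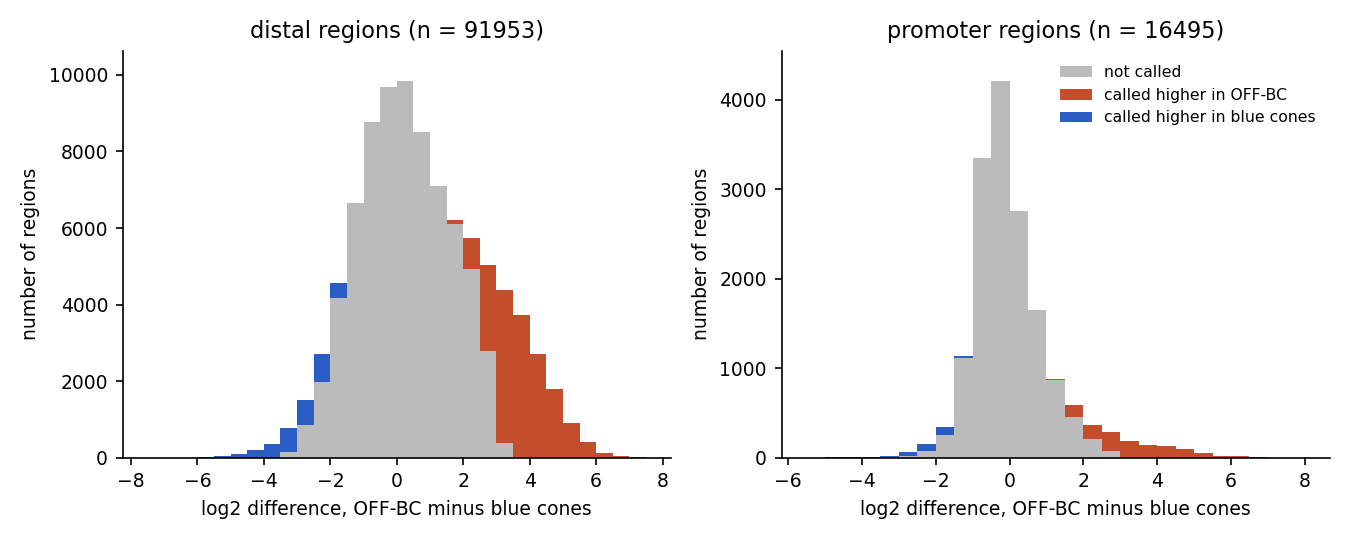
Number of tested regions (y axis) by log2 difference in accessibility, OFF-BC minus blue cones (x axis), for distal regions on the left and promoters on the right. Colours mark called regions. Distal regions have a long shoulder toward OFF-BC, where 16894 were called, while most promoters lie near 0.

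The *Nrl* gene, disrupted in the blue cone mice, was read first as a check of the labels. NRL is the basic leucine zipper factor that directs rod fate. At chr14:55521174-55521374, in an intron, both blue cone libraries had 0 reads, whereas rods held 674 and 682 and OFF-BC 25.6 and 28.2. Regions at chr14:55520630-55520830 (coding exon) and chr14:55518980-55519180 (non-coding exon part) were also at 0 in both blue cone libraries, against 14.8 and 36.0, and 17.5 and 42.8, in OFF-BC. All 3 were called higher in OFF-BC, with blue cone values that do not go against the label *Nrl*KO. The *Nrl* promoter, in contrast, had more reads in blue cones than in OFF-BC. The mice of blue cones and rods carry *Nrl*-eGFP, and its part in the reads at *Nrl* starts was not tested. At chr14:55524920-55525120 the values were 649 and 494 in blue cones, 25.6 and 53.5 in OFF-BC and 1645 and 1616 in rods (log2 difference -3.90, adjusted p = 2.51e-05). *Nrl* transcripts were counted at 636 ± 141 (SD, n = 3) in blue cones and 20.5 ± 5.26 in OFF-BC, by a count that does not separate the intact from the disrupted gene.

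Among regions of cone phototransduction genes, more were higher in blue cones than in OFF-BC. Of 97 tested regions assigned to 13 genes, 18 (18.6%) were higher in blue cones and 7 (7.2%) in OFF-BC, against 3.12% and 16.7% of all tested regions, with a median difference of -1.17, and 12 of the 13 genes were expressed higher in blue cones. For each gene the most accessible region, by its mean over the 4 libraries, is called its lead, and 7 of the 13 leads were called, all toward blue cones. At the promoter of *Arr3*, cone arrestin, which shuts off cone opsins (chrX:100605357-100605557), OFF-BC held 48.5 and 41.9 and blue cones 279.8 and 269.6. The groups were well apart, with a difference of -2.58 ± 0.34 (SE, adjusted p = 0.00162). At the promoter of *Gnb3*, the beta subunit of the cone transducin that ON bipolar cells use as well (chr6:124840207-124840407), OFF-BC held 64.7 and 82.7 and blue cones 381 and 285 (-2.16 ± 0.20, adjusted p = 0.000302). Both OFF-BC values lay below both blue cone values by a wide margin, and *Gnb3* transcripts were 13746 ± 4638 in OFF-BC and 215435 ± 5134 in blue cones. The other called regions were at *Pde6h* (-2.37) and *Guca1a* (-2.32), which encode a phosphodiesterase subunit and a guanylate cyclase activator, 3852 bp upstream of *Opn1mw*, the green opsin (-2.19), and in introns at *Gnat2*, cone transducin alpha (-1.72), and *Pde6c*, the cone phosphodiesterase (-1.69). *Gnat2* and *Pde6c* fall outside the rule for named genes and are given to complete the 7 calls. Of these 7 calls, those at *Arr3* and *Gnb3* held under all 18 alternatives, while the others were lost under 1 to 7 of them. Leads of *Gngt2* (-1.49), *Kcnv2* (-1.25) and *Cnga3* (-1.56) were not called.

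*Opn1sw*, the short-wavelength opsin that defines blue cones, is named here after its values were seen. Its promoter at chr6:29380472-29380672 held 242 and 221 in blue cones and 112 and 106 in OFF-BC, a difference of -1.08 that was not called (adjusted p = 0.831). ON-BC held 11.9 and 2.93 there and pan-BC 22.4 and 23.9, so that the 2 OFF-BC libraries stood above the other bipolar libraries. At the *Gnat2* promoter (chr3:108092630-108092830), also chosen after its values were seen and not called (-1.76, adjusted p = 0.0791), OFF-BC held 56.6 and 89.6, ON-BC 10.5 and 8.78, pan-BC 32.8 and 26.8, and blue cones 249 and 239. Both OFF-BC libraries exceeded all 4 ON-BC and pan-BC libraries in 7 of the 18 cone regions called higher in blue cones (38.9%) and in 32 of all 97 cone regions, against 22.0% of the 3383 regions called higher in blue cones and 16.1% of all tested regions. Summed over the 97 regions, OFF-BC held 3671 and 3494, ON-BC 3213 and 3425, pan-BC 3117 and 3529, and blue cones 7676 and 7641. *Opn1sw* transcripts in the RNA-seq libraries of OFF-BC were 4477, 4314 and 55813, the third standing apart, against 1108422 to 1302223 in blue cones. The part of cone DNA or RNA in the OFF-BC values was not tested, and in bulk samples fewer cells of a type and a lower signal per cell cannot be told apart.

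Rod and shared photoreceptor genes followed the same direction. Among 192 regions of 25 genes, 25 (13.0%) were higher in blue cones and 7 (3.6%) in OFF-BC, against 3.12% and 16.7% of all regions, with a median of -0.72, and 19 genes were expressed higher in blue cones and 1 in OFF-BC. The promoter of *Pde6a*, a subunit of the rod phosphodiesterase on chromosome 18, held 8.08 and 19.5 in OFF-BC and 203 and 190.1 in blue cones (-3.86 ± 0.35, adjusted p = 2.21e-05). Although *Pde6a* is a rod gene, its transcripts reached 4151 in the *Nrl*KO photoreceptors and 20.2 in OFF-BC (means of 3). The region 1959 bp into *Prph2*, a structural protein of outer segment discs (chr17:46912337-46912537), held 101 and 146 in OFF-BC and 495 and 467 in blue cones (-1.98 ± 0.19, adjusted p = 0.000734). *Prph2* had 6 of 11 regions called in this direction. Further leads were called at *Guca1b* (-2.58) and *Pde6g* (-2.33), the latter lost without OFF-BC replicate 1 or blue cones replicate 1. The leads of *Rbp3* (-1.52), *Rgs9* (-0.98) and *Slc24a1* (-1.25) were not called.

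Among photoreceptor transcription factors, more calls were toward blue cones than toward OFF-BC. Of 261 regions of 16 genes, 31 (11.9%) were higher in blue cones and 20 (7.7%) in OFF-BC, against 3.12% and 16.7% of all regions, with a median of -0.64. Toward blue cones and OFF-BC the counts were 57 and 10 with quantile normalization (median -1.32), 61 and 12 with GC centring (-1.20) and 67 and 23 with edgeR. All 108448 regions gave 7639 and 9486, 7982 and 10305, and 8671 and 22590, in the same order. In RNA-seq, 13 genes were expressed higher in blue cones and none in OFF-BC. At *Casz1*, a zinc finger factor (chr4:148889122-148889322), OFF-BC held 51.2 and 67.2 and blue cones 373 and 301 (-2.49 ± 0.27, adjusted p = 0.000426). The intronic region of *Esrrb*, an orphan nuclear receptor (chr12:86453802-86454002), held 53.9 and 83.7 against 335 and 376 (-2.38, adjusted p = 0.0044, and 0.0787 without OFF-BC replicate 1), and 7 of its 26 regions were higher in blue cones. *Samd11* was called as well (-2.27). At other leads no call was made. At the promoter of *Rorb* OFF-BC held 555 and 434 and blue cones 531 and 636, and at that of *Neurod1* 531 and 472 against 392 and 391. The promoter of *Thrb*, the thyroid hormone receptor of green cones, held 319 and 238.5 against 483 and 380 (-0.63), while its transcripts were higher in blue cones by 4.56 (log2).

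Of the regions of bipolar transcription factors, more were higher in OFF-BC. Of 222 regions of 20 genes, 48 (21.6%) were higher in OFF-BC and 7 (3.2%) in blue cones, against 16.7% and 3.12% of all regions, with a median of 0.84. The counts were 19 and 11 with quantile normalization (median 0.12) and 25 and 17 with GC centring (0.36). All 108448 regions gave 9486 and 7639, and 10305 and 7982. With quantile normalization the share of the list toward OFF-BC was thus close to that of all regions. In RNA-seq, 16 genes were expressed higher in OFF-BC and 1 in blue cones. The promoter of *Neurod4*, a proneural bHLH factor (chr10:130280194-130280394), held 79.5 and 122 in OFF-BC and 7.77 and 17.3 in blue cones (2.97 ± 0.41, adjusted p = 0.00144), and its transcripts were 14464 against 614. The promoter of *Zfhx4*, a large zinc finger homeodomain factor (chr3:5218414-5218614), held 120 and 77.9 against 19.4 and 10.1 (2.70 ± 0.32, adjusted p = 0.00062). *Vsx1*, a Q50 homeodomain factor of OFF bipolar cells, had 2 tested regions, both called. The more open of them, 23211 bp from the gene's start (chr2:150712248-150712448), held 35.0 and 30.2 in OFF-BC and 0 and 1.45 in blue cones (4.42, adjusted p = 0.00119). A region 199366 bp from *Isl1*, a LIM homeodomain factor of ON bipolar cells (chr13:116508954-116509154), held 143 and 84.7 against 3.88 and 0 (5.65, adjusted p = 0.000124), and 10 of 23 *Isl1* regions were called, while its transcripts were not. The call at *Irx5* (2.59) was lost under 7 alternatives.

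Several of the bipolar factors had open regions in blue cones too. The leads of *Nfia* (501 and 421 in OFF-BC, 510 and 469 in blue cones), *Lhx4* (164 and 139 against 418 and 350.5) and *Fezf1* (168 and 134 against 142 and 158) were not called, although transcripts of *Nfia* and *Lhx4* were 4.07 and 3.94 (log2) higher in OFF-BC. *Fezf1* transcripts were higher in blue cones (-4.74), and 4 of its 16 regions were higher there. At *Bhlhe23*, a bHLH repressor expressed 6.36 higher in OFF-BC, the most open region (chr2:180825593-180825793) was higher in blue cones, with 321 and 343 against 80.8 and 112 (-1.79, lost under 3 alternatives), whereas 4 other regions of the gene were higher in OFF-BC. The most open region near *Prdm8*, which encodes a histone methyltransferase family member, was higher in blue cones as well (-2.24).

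Among OFF bipolar markers, of 149 regions of 18 genes, 47 (31.5%) were higher in OFF-BC and 6 (4.0%) in blue cones, against 16.7% and 3.12% of all regions, with a median of 1.85. With quantile normalization the counts were 26 and 9 (median 0.77) and with GC centring 26 and 11 (0.92). All 108448 regions gave 9486 and 7639, and 10305 and 7982. In RNA-seq, 16 of 19 genes were expressed higher in OFF-BC and 1 in blue cones. *Grik1* encodes the kainate receptor subunit on which OFF bipolar responses rest. A region 69971 bp from its start (chr16:88360087-88360287) held 93.0 and 98.3 in OFF-BC and 2.59 and 0 in blue cones (5.67 ± 0.71, adjusted p = 0.000137), and the *Grik1* promoter (chr16:88290239-88290439) held 63.3 and 84.7 against 0 and 0. Fitted log2 differences of regions with no or few reads in 1 population depend on the pseudocount of 1. *Grik1* transcripts were 38804 ± 10846 in OFF-BC and 385 ± 43.6 in blue cones. At the promoter of *Tafa4*, a secreted peptide (chr6:97060396-97060596), OFF-BC held 279 and 195 and blue cones 20.7 and 21.7 (3.40 ± 0.36, adjusted p = 0.00011). *Tacr3*, a tachykinin receptor, was called at 2.82 and lost under 5 alternatives. The most open regions of *Hcn4* (-0.44) and *Nnat* (-0.60) were not called, although their transcripts were 5.31 and 8.02 higher in OFF-BC.

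*Grm6* separates the 2 bipolar sorts by their labels. At a region 186 bp downstream of its start (chr11:50850771-50850971), chosen after its values were seen, the libraries held 13.5 and 16.6 in OFF-BC, 303 and 384 in ON-BC, and 1.30 and 0.72 in blue cones, so that the OFF-BC libraries sat far below ON-BC and above blue cones (adjusted p = 0.00913 against blue cones). Pan-BC held 34.4 and 30.8. The mice of ON-BC and OFF-BC carry the *Grm6* promoter in the YFP transgene as well, and its part in these reads was not tested. The most open *Grm6* region, 2295 bp upstream of the start (chr11:50848290-50848490), held 113 and 134 in OFF-BC and 95.8 and 138 in blue cones, and was not called (0.10). In the ON bipolar cascade as a whole, 22 of 136 regions (16.2%) were higher in OFF-BC and 13 (9.6%) in blue cones, against 16.7% and 3.12% of all regions, with a median of 0.23. The balance turned toward blue cones with TMM scaling (16 and 19, median 0.02), quantile normalization (7 and 20, -0.42) and GC centring (10 and 22, -0.20). All 108448 regions gave 15747 and 4816, 9486 and 7639, and 10305 and 7982, in the same order. Of its 15 genes 10 were expressed higher in OFF-BC and 2 in blue cones. *Gpr179*, an orphan receptor of the cascade, was called (4.01, lost under 3 alternatives), and *Lrit3*, a synaptic adhesion protein that photoreceptors also make, was higher in blue cones (-1.68, lost under 8). The leads of *Gnao1* (0.84), *Rgs7* (-1.47) and *Prkca* (-0.16) were not called. *Prkca*, the usual marker of rod bipolar cells, had 7 of 23 regions higher in blue cones and none in OFF-BC.

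**Figure D2:**
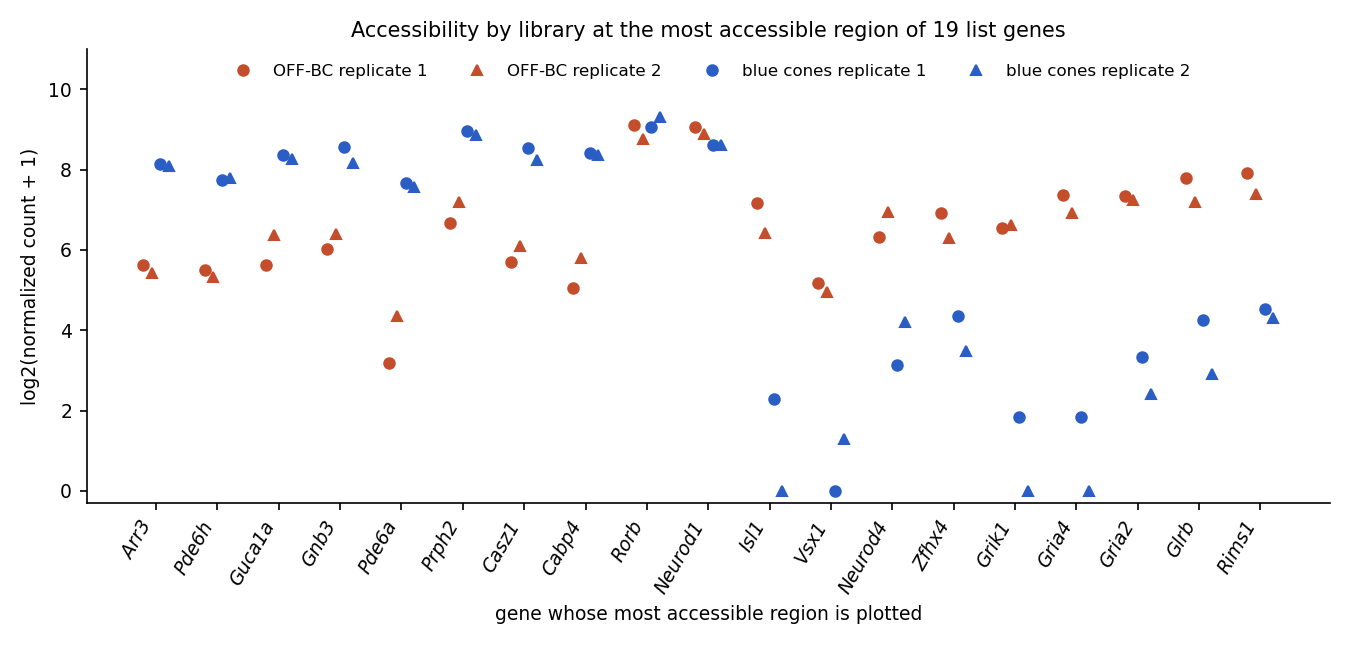
Accessibility as log2(normalized count + 1) (y axis) at the most accessible region of 19 list genes (x axis), 1 point per library, OFF-BC in red and blue cones in blue, circles for replicate 1 and triangles for replicate 2. The genes on the left, up to *Cabp4*, are higher in blue cones, and *Rorb* and *Neurod1* lie together. Those on the right, from *Isl1*, are higher in OFF-BC. Blue cones are near the floor at some of them, such as *Gria4*, and not at others, such as *Rims1*.

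Receptor genes had the highest shares toward OFF-BC among the 13 lists. Of 143 regions of 18 glutamate receptor and auxiliary genes, 66 (46.2%) were higher in OFF-BC and 2 (1.4%) in blue cones, with a median of 2.48. Of 134 regions of 14 GABA and glycine receptor genes, 63 (47.0%) were higher in OFF-BC and 2 (1.5%) in blue cones, with a median of 2.46. Transcripts of 14 of 15 and 8 of 13 tested genes of these lists were higher in OFF-BC, and none in blue cones. Over all regions the shares were 16.7% and 3.12%. The medians stayed positive under every scaling tried, at 1.07 and 1.68 with quantile normalization, which left 31 and 41 regions higher in OFF-BC and 6 and 4 in blue cones. Of all 108448 regions, that scaling left 9486 higher in OFF-BC and 7639 in blue cones. At the promoter of *Gria4*, an AMPA receptor subunit (chr9:4796117-4796317), OFF-BC held 166 and 121 and blue cones 2.59 and 0 (6.23 ± 0.72, adjusted p = 5.81e-05). At that of *Gria2*, the AMPA subunit that limits calcium entry (chr3:80802737-80802937), they held 162 and 149.9 against 9.07 and 4.34 (4.42 ± 0.33, adjusted p = 4.01e-06), with 8 of 11 regions called. *Grik2* had 14 of 17 regions called, the most open at 131 and 96.4 against 2.59 and 4.34 (4.69). *Grin3a*, an NMDA receptor subunit, had 9 of 13 called, and its most open region had 0 reads in both blue cone libraries (116 and 71.1 in OFF-BC, at least 30.9-fold higher with a floor of 3 reads per blue cone library), yet its transcripts were not called (25.6 against 13.1). Of the 18 most open regions in this list, 9 were called higher in OFF-BC and 9 were not called. Transcripts were higher in OFF-BC for 7 of those 9 genes, among them *Gria1*, whose distal lead held 229 and 212 against 175 and 173 and whose transcripts were 7.16 (log2) higher in OFF-BC. The others include *Neto2* (lead 0.02) and, named after their values were seen, *Cacng2* (-1.27) and *Cacng3* (-1.82), which encode auxiliary subunits of AMPA receptors, while *Grik4* (-0.42) was not tested in RNA-seq.

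Among inhibitory receptors, the promoter of *Glrb*, the glycine receptor beta subunit (chr3:80913534-80913734), held 221 and 145 in OFF-BC and 18.1 and 6.50 in blue cones (3.91 ± 0.48, adjusted p = 0.000263), with 5 of 6 regions called. *Gabrb2* had 11 of 13 regions called (lead 3.97, lost without OFF-BC replicate 1 or blue cones replicate 2), and *Gabrb1* (3.48) and *Glra3* (3.89) were called. The scaffold gene *Gphn* was open in both, at 373 and 381 against 359 and 340 (0.11, not called). *Gabrr2*, which encodes a GABA-C receptor subunit, held 116 and 106 against 126 and 142 at its lead, not called, although its transcripts were 6.55 higher in OFF-BC, and *Gabra2* (0.14) was not called either.

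Ribbon synapse genes, which both classes need, had calls in both directions. Of 234 regions of 16 genes, 36 (15.4%) were higher in OFF-BC and 8 (3.4%) in blue cones, against 16.7% and 3.12% of all regions, with a median of -0.10 that was 0.04 with size factors from promoters and -0.65 with GC centring. The calls toward OFF-BC and blue cones were 18 and 30 with GC centring, 20 and 18 with quantile normalization and 41 and 26 with edgeR, so that their direction turned under the first. All 108448 regions gave 10305 and 7982, 9486 and 7639, and 22590 and 8671, in the same order. Transcripts of 3 of the 16 were higher in OFF-BC and of 2 in blue cones, against 21.8% and 13.7% of all genes tested in RNA-seq. *Rims1*, an active zone scaffold, accounted for 15 of the 36. Its promoter at chr1:22806062-22806262 held 241 and 167 in OFF-BC and 22.0 and 18.8 in blue cones (3.24 ± 0.37, adjusted p = 0.000225), and its transcripts were 173 ± 63.3 against 1.51 ± 1.99. *Cabp4*, a calcium sensor of the photoreceptor terminal, went the other way, with 32.3 and 54.5 against 343 and 330 (-2.97 ± 0.25, adjusted p = 2.71e-05). The calls at *Cplx3* (-1.80) and *Ctbp2*, which encodes the ribbon protein (-1.57), were lost under 3 and 4 alternatives, and transcripts of neither were called. The leads of *Syt1* (-0.58), *Erc2* (-0.35) and *Unc13b* (-0.78) were not called.

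Markers of other retinal cells were checked in the same way. In Müller glia genes 16 of 68 regions (23.5%, against 16.7% of all regions) were higher in OFF-BC and none in blue cones, with a median of 0.85. With quantile normalization the counts were 8 and 4 (median 0.07) and with GC centring 6 and 4 (0.13). All 108448 regions gave 9486 and 7639, and 10305 and 7982. In RNA-seq, 2 of 10 genes were expressed higher in OFF-BC and 1 in blue cones, against 21.8% and 13.7% of all tested genes. Summed over the list the OFF-BC libraries held 2770 and 2456, blue cones 2314 and 2285, and ON-BC 3052 and 3220. *Sox9*, a glial transcription factor, held 97.0 and 122 at its promoter against 2.59 and 8.67 (4.22, adjusted p = 0.00071), with ON-BC at 10.5 and 8.78 and pan-BC at 45.6 and 37.1, and its transcripts were 1400 ± 144 in OFF-BC against 37.0 ± 6.88. *Aqp4*, a water channel of Müller glia, was called at a region 160327 bp away (3.41), with transcripts at 20.3 against 33.4, not called, and the leads of *Clu* (-1.15), *Kcnj10* (-1.16) and *Dkk3* (0.00) were not called. In amacrine, horizontal and ganglion cell genes 11 of 85 (12.9%, below the 16.7% of all regions) were higher in OFF-BC. In blue cones 1 was higher (1.2%, below the 3.12% of all regions). Transcripts of 5 and 2 of 11 genes were higher in OFF-BC and blue cones. Leads were called at *Tfap2b* (3.53) and *Calb1* (3.84), and not at *Onecut2*, *Slc6a9* and *Onecut1*. In microglia and vessel genes the counts were 8 and 3 of 33 (24.2% and 9.1%, against 16.7% and 3.12% of all regions). They were 3 and 4 with quantile normalization and with GC centring, where the counts over all regions are those given above for the glial list. Leads were called at *P2ry12* (4.45), *Cldn5* (3.13), *Cdh5* (1.93) and, toward blue cones, *C1qa* (-2.02), and not at *Cx3cr1*, *Aif1* and *Flt1*. Of these leads, each call except that at *Sox9* was lost under at least 1 alternative, and the medians of the last 2 lists (0.38 and 0.64) turned negative with quantile normalization and GC centring. Summed levels were 3187 and 2863 (OFF-BC) and 2998 and 3094 (blue cones) in the amacrine list, and 814 and 891, and 938 and 841, in the microglia list. Of the 6 microglia and vessel genes tested in RNA-seq none was called. What these cells add to the values was not tested. Housekeeping genes had 1 region of 49 called in each direction (2.0%, against 16.7% toward OFF-BC and 3.12% toward blue cones over all regions). Their median was 0.20, and was -0.03 with TMM scaling, -0.02 with edgeR, -0.17 with quantile normalization and -0.05 with GC centring. Transcripts of 3 of 12 were higher in OFF-BC and of 1 in blue cones, against the same 21.8% and 13.7% of all tested genes. *Pgk1* was called toward blue cones (-1.45, lost under 8 alternatives), and *Rplp0*, *Actb* and *Eef1a1* were not.

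**Figure D3:**
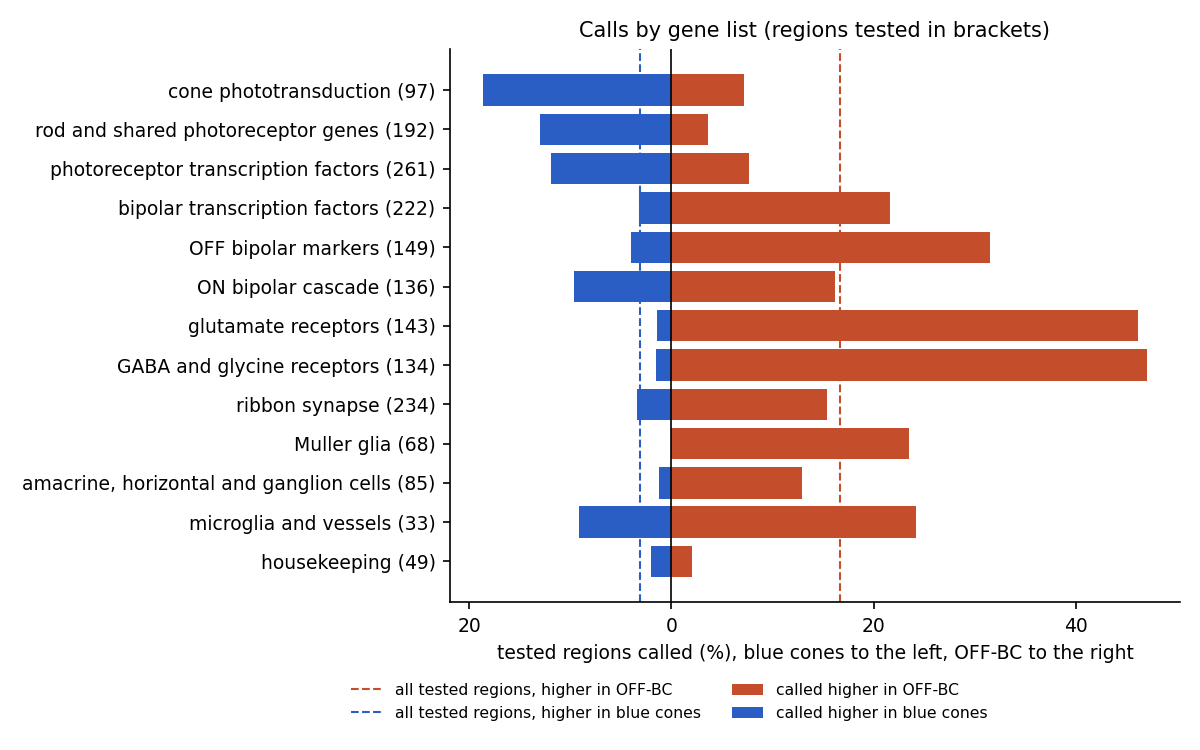
Share of tested regions called (x axis, in %) for each of 13 gene lists (y axis, number of tested regions in brackets), toward OFF-BC to the right and toward blue cones to the left, with dashed lines at the shares over all tested regions. Glutamate, GABA and glycine receptor genes reach 46.2% and 47.0% toward OFF-BC, and cone phototransduction genes 18.6% toward blue cones.

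The largest differences toward OFF-BC among distal regions were far from transcription starts, at 85830 to 890419 bp. The 8 distal regions with the largest differences all had 2 blue cone libraries with at most 1.45, and 7 of the 8 had no read in either. The region 334485 bp from *Trib2*, whose sequence is given above, held 205 and 124 in OFF-BC and 0 in both blue cone libraries, at least 54.2-fold higher when 3 reads per blue cone library are taken as the floor. It was at 290.4 and 375 in pan-BC, 455 and 498 in ON-BC, and 2.34 and 2.03 in rods. A pair of the 8 flank *Gm6634* on chromosome 3, at chr3:70482609-70482809 (194 and 130.4, at least 53.6-fold) and chr3:70962602-70962802 (148 and 109, at least 42.5-fold). The others lie near *Mir7094-2*, *1700116B05Rik*, *D730050B12Rik* and *Cdkal1* (in an intron), at least 45.5-, 48.5-, 45.2- and 44.0-fold higher, and near *D030045P18Rik*, where 2 blue cone reads give 219.9-fold (95% counting interval 60.4 to 1823). *Cdkal1* and *Trib2* transcripts were not called.

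Among promoters the order was led by *B4galt6* on chromosome 18, a lactosylceramide synthase, with 597 and 316 against 0 and 2.89 (7.79 ± 0.60, adjusted p = 2.36e-06). *Lrrn1*, a leucine-rich repeat membrane protein (chr6:107529598-107529798), held 298 and 227 against 0 and 1.45 (7.38), *Ndst3*, a heparan sulfate sulfotransferase (chr3:123690804-123691004), 271 and 161 against 0 and 0.72 (7.32), and *Chrm3*, a muscarinic acetylcholine receptor (chr13:10360836-10361036), 119 and 92.5 against 0 and 0, at least 34.9-fold. The promoter of *Dok6*, an adaptor protein gene on chromosome 18, held 144 and 145 against 1.29 and 0, though its transcripts were too few to be tested. With 1 or 2 blue cone reads the ratios were 277-fold for *Lrrn1* (95% counting interval 76.1 to 2291), 446-fold for *Ndst3* (79.5 to 17660) and 312-fold for *Dok6* (55.5 to 12366). All blue cone libraries were near 0 at these 5 promoters. Transcripts of the other 4 were also higher in OFF-BC, by 4.62, 5.32, 7.90 and 7.28 (log2) for *B4galt6*, *Lrrn1*, *Ndst3* and *Chrm3*.

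Toward blue cones, several of the largest differences were at regions without a read in OFF-BC. The intronic region nearest to *Pde8b*, a cyclic nucleotide phosphodiesterase gene (chr13:95244990-95245190, with 2 K50 sites), held 115 and 106 in blue cones and 0 in both OFF-BC libraries, at least 31.7-fold higher, and *Pde8b* transcripts were 6932 against 343. The *Mrpl3* region held 324 and 324 against 1.35 and 1.95 (-6.95 ± 0.55, adjusted p = 3.12e-06), a 191-fold ratio with a 95% counting interval of 65.1 to 928. It was 85.7 and 79.3 in rods and 83.0 and 81.7 in green cones, so that blue cones stood above both. The region at *A430018G15Rik* held 126 and 150 in blue cones and 0 in both OFF-BC libraries, but 88.1 and 64.4 in ON-BC and 52.0 and 78.7 in pan-BC, and only 12.3 and 2.82 in green cones. At *H3f3a* (142 and 150.3 against 2.69 and 0), *St6galnac3* (55.7 and 82.4 against 0) and *Pask* (62.2 and 57.1 against 0) the transcripts did not follow. Those of *H3f3a* and *Pask* were not called, and those of *St6galnac3* were higher in OFF-BC (5.54, 82.0 against 1.52). A pair of regions nearest to the agouti gene *a* (chr2:155019073-155019273 and chr2:155019780-155019980) held 98.4 and 139, and 59.6 and 79.5, in blue cones and 0 in OFF-BC.

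Promoters that led toward blue cones had fewer reads. *Gm12299* held 31.1 and 49.1 against 0 in both OFF-BC libraries (-5.33), a second start of *Nrl* (chr14:55524171-55524371) 167 and 108 against 0 and 11.7 (-5.25), *Smim14* 33.7 and 59.3 against 0 and 1.95 (-4.74) and *BC055402* 23.3 and 27.5 against 0 (-4.72). *Tc2n* (chr12:101718427-101718627) held 276 and 209 against 9.43 and 7.79 (-4.65 ± 0.51, adjusted p = 7.2e-05). In each of the 5 the groups did not overlap, and only *Tc2n* and *Nrl* had more than 100 in both blue cone libraries. The limit given above for reads at *Nrl* starts holds here too.

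Regions that differed were mostly distal, and they differed in place by direction. Of those higher in OFF-BC, 52.2% were intergenic and 38.9% intronic, against 39.0% and 51.3% of those higher in blue cones and 39.6% and 42.8% of all tested regions. Distal regions higher in OFF-BC lay a median of 56109 bp from the nearest start, those higher in blue cones 20759 bp, and all distal regions 28620 bp. More than 100 kb separated 32.7% of the OFF-BC regions from any start, 10.6% of the blue cone regions and 17.0% of all. Promoters were 6.5% and 7.4% of the called sets and 15.2% of all tested regions. GC content of distal regions was close, at medians of 46.8% (OFF-BC), 47.3% (blue cones) and 48.8% (all), while called promoters had fewer CpG dinucleotides than the rest, at medians of 10 (OFF-BC) and 6 (blue cones) against 17 in all tested promoters.

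Short sequences under the regions differed in frequency between the directions. The K50 sequence TAATCC was in 49.3% of distal regions higher in blue cones, 16.3% of those higher in OFF-BC and 24.6% of all distal regions. The Q50 sequences TAATTA or TAATTG were in 25.0%, 12.5% and 12.7%. The E-box CAGATG, read by neurogenic bHLH factors, ran opposite, in 18.9% of regions higher in blue cones, 37.9% of those higher in OFF-BC and 25.2% of all. A further E-box, CAGCTG, was in 15.1%, 26.6% and 19.3%. Both strands were searched over 201 bases, and a match describes the letters only. Shares over promoters and distal regions together were 47.9% and 15.6% for K50 and 18.6% and 36.4% for CAGATG, in the order blue cones and OFF-BC, against 21.8% and 22.5% of all tested regions.

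Combinations of these sequences were counted as well. An E-box of either of those types without TAATCC was in 45.7% of distal regions higher in OFF-BC and 16.9% of those higher in blue cones. The share in all distal regions was 30.5%. TAATCC without those E-boxes was in 8.0%, 34.7% and 15.9%, in the same order. Regions with K50 and Q50 sequences together made up 12.4% of those higher in blue cones, 2.3% of those higher in OFF-BC and 3.7% of all. Of the other sequences searched in distal regions, the nuclear receptor sequence AGGTCA (21.2% against 15.6%) and the AP-1 site TGANTCA (10.4% against 6.3%) were more frequent toward blue cones, and the NFI sequence TTGGCA (9.3% against 14.2%), the MAF sequence TGCTGA (564 of 3133 against 3546 of 16894 regions), CATATG (4.1% against 5.3%) and the MEF2 site TAAAAATA (2.8% against 3.2%) toward OFF-BC. The Sp/KLF site GGGCGG was less frequent in both (7.2% and 5.6%) than in all distal regions (9.5%). The CTCF consensus was in 0.7% of distal regions higher in blue cones, 8.1% of those higher in OFF-BC and 8.6% of all. In 10 equal groups of all distal regions ordered by the difference, TAATCC fell from 44.5% in the group most toward blue cones to 16.2% in the group most toward OFF-BC, CAGATG rose from 18.2% to 41.2%, and the CTCF consensus was highest (14.5%) near a difference of 0.80 and lowest (1.4%) toward blue cones. The groups share the same 4 libraries, and the shares are a description without a test.

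**Figure D4:**
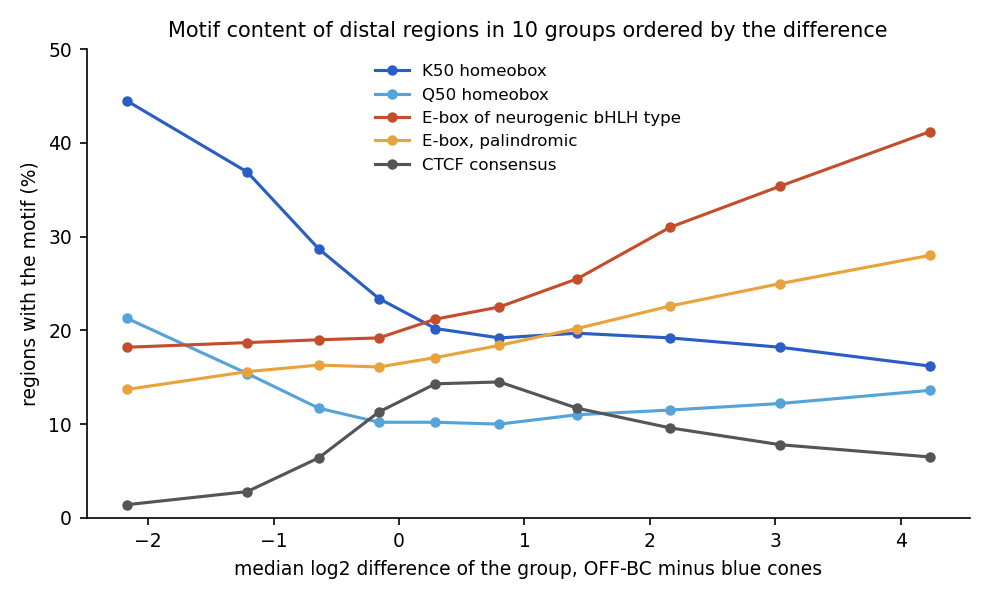
Share of distal regions that hold a sequence (y axis, in %) in 10 equal groups of the regions ordered by their difference, each plotted at its median log2 difference, OFF-BC minus blue cones (x axis). K50 falls from 44.5% to 16.2% and the E-box CAGATG, labelled as the neurogenic bHLH type, rises from 18.2% to 41.2%.

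Accessibility and expression of the nearest gene were compared across assays. In RNA-seq, 3052 of 14024 genes (21.8%) were higher in OFF-BC and 1923 (13.7%) in blue cones. Among 10583 regions higher in OFF-BC whose nearest gene was tested, 48.1% had a gene that was higher in OFF-BC and 8.1% a gene higher in blue cones, against 26.2% and 16.5% over all 75525 regions with a tested gene. Among 2509 regions higher in blue cones the shares were 12.8% and 31.5%. At promoters 66.9% of those higher in OFF-BC had a gene higher in OFF-BC and 4.3% a gene higher in blue cones. Of promoters higher in blue cones, 51.5% had a gene higher there and 6.3% a gene higher in OFF-BC. Over all 14411 promoters with a tested gene, 20.2% had a gene higher in OFF-BC and 14.9% a gene higher in blue cones. Regions of 1 gene are not independent, since the 10583 regions belong to 3988 genes. Counted by gene, 62.0% of 537 genes with 5 or more regions higher in OFF-BC and none higher in blue cones were expressed higher in OFF-BC, 31.4% of 1641 genes with 1 such region, and 15.9% of 7937 genes with no called region. Of 282 genes with 2 or more regions higher in blue cones and none in OFF-BC, 47.2% were expressed higher in blue cones. Over all 13122 genes with a tested region, 21.7% were expressed higher in OFF-BC and 14.1% in blue cones.

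The regions with the largest differences and expression in the same direction were led, after the promoters already given, by *Amotl1*, an angiomotin family scaffold (144 and 112 against 0, at least 42.3-fold, transcripts 2187 against 75.9), and *Nova2*, a neuronal splicing factor (112 and 135 against 0, at least 40.8-fold, transcripts 961 against 11.3). *Epha3*, an ephrin receptor, had a region 480172 bp away with 140.1 and 86.6 against 0 and transcripts at 3738 against 14.9. *Dlgap1*, a postsynaptic scaffold, held 95.6 and 123 against 0 at an intronic region, with transcripts at 288 against 14.7. Toward blue cones, after *Pde8b* and *Nrl*, they were intronic regions nearest to *Clpx* (60.9 and 41.9 against 0), *Tmem266* (115 and 170 against 2.69 and 1.95), *Limd1* (33.7 and 49.9 against 0), *Ascc2* (82.9 and 55.6 against 0 and 1.95), *Mapkap1* (32.4 and 38.3 against 0) and *Gpat3* (28.5 and 42.6 against 0). *Gpat3*, a glycerol phosphate acyltransferase, had the widest gap in transcripts, at 2468 in blue cones and 8.91 in OFF-BC. OFF-BC libraries were at or near 0 at each of these blue cone regions.

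Other regions and their nearest genes went opposite ways. Regions higher in OFF-BC lay nearest to *Wwc1* (125 and 98.3 against 0, transcripts 29.7 in OFF-BC and 5617 in blue cones), *Col19a1* (428 and 251 against 7.77 and 0, transcripts 4.20 and 125), *Ghitm* (135 and 69.1 against 0, at a distance of 849963 bp) and *Tmem268* (102 and 76.9 against 0). Regions higher in blue cones lay nearest to *Lonrf2* (41.4 and 44.1 against 0, transcripts 1031 in OFF-BC and 16.9 in blue cones), *Dynlrb1* (33.7 and 38.3 against 0), *Insyn2a* (95.8 and 117 against 2.69 and 1.95, transcripts 2025 and 36.4) and *Rnf157* (80.3 and 74.4 against 0 and 5.84). The nearest start is a rule of assignment, and a region may act on another gene or on none.

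Calls were also counted by nearest gene. By number of called regions, a ranking made after the values were seen, *Lsamp* had 30 of 49 regions higher in OFF-BC, *Lrrc4c* 28 of 40, *Tenm4* 25 of 38, *Cntnap2* 25 of 51 and *Pcdh9* 24 of 36, none with a region higher in blue cones. These 5 encode adhesion proteins of neurons, and their transcripts were 3.09 to 7.45 (log2) higher in OFF-BC. Further down this order, *D3Ertd751e* had 21 of 32 regions higher in OFF-BC with transcripts that were not called (-1.32), and *Nsun3* had 19 of 28 with transcripts at -1.91, toward blue cones. Toward blue cones the counts were smaller. *Mir5127* had 9 of 47, *Cep164* 8 of 32, *Tbc1d22a* 8 of 52, *Xylt1* 8 of 63 and *Zfp503* 6 of 9. All but *Zfp503* also had regions higher in OFF-BC. Transcripts of *Zfp503* were 4.22 higher in blue cones, while those of *Cep164* (-0.08), *Tbc1d22a* (-1.2) and *Xylt1* (-1.8) were not called. The shares over all tested regions were 16.7% toward OFF-BC and 3.12% toward blue cones.

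The regions higher in OFF-BC had high levels in the other bipolar libraries too. Over the 18075 regions the median log2(normalized count + 1) was 5.28 and 4.96 in the OFF-BC libraries, 5.69 and 5.82 in ON-BC and 5.47 and 5.79 in pan-BC. Photoreceptors were lower, with 1.84 and 1.29 for blue cones, 2.03 and 2.73 for green cones, and 0.00 and 0.75 for rods, where 54.2% and 47.0% of the regions had no read. The 3383 regions higher in blue cones had medians of 6.23 and 6.37 there, 5.93 and 5.91 in green cones and 6.05 and 6.10 in rods, and 3.29 to 3.79 in the 6 bipolar libraries. Pan-BC and rods share no library with OFF-BC and blue cones, but their comparison is not independent of the main one. Both took the spread of a region from the same fit to all 12 libraries, and the pan-BC sort includes OFF bipolar cells. The comparison of pan-BC with rods called 43735 regions (40.3%) higher in pan-BC and 12179 (11.2%) higher in rods. Of the 18075 regions, 16810 (93.0%) were higher in pan-BC and 10 higher in rods, and these 16810 were 38.4% of the regions higher in pan-BC. Of the 3383 regions, 1931 (57.1%) were higher in rods, 15.9% of the regions higher in rods, 121 were higher in pan-BC, and 1331 (39.3%) were not called there.

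**Figure D5:**
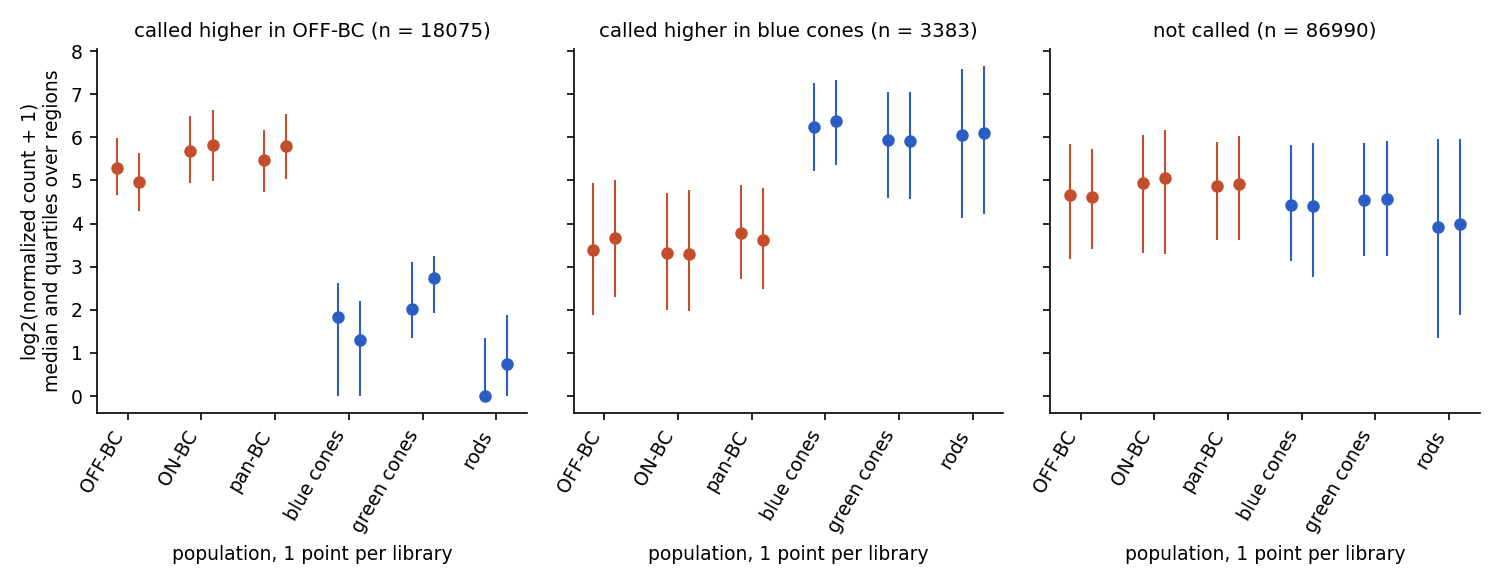
Median and quartiles over regions (y axis, log2(normalized count + 1)) in each of the 12 libraries (x axis, by population, bipolar in red and photoreceptor in blue) for regions called higher in OFF-BC, called higher in blue cones, and not called. The values of OFF-BC and blue cones chose the sets, and the other 8 libraries show where the same regions are open. ON-BC and pan-BC lie at 5.47 to 5.82 in the left panel, and green cones and rods at 5.91 to 6.10 in the middle panel.

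The difference between OFF-BC and blue cones was set against that between ON-BC and green cones by a test of the difference itself, over libraries not shared between the contrasts. It lay above in 1619 regions (1.49%) and below in 1619 (1.49%). Regions that passed above had median levels of 4.95 in OFF-BC, 1.39 in ON-BC, 4.82 in blue cones and 5.87 in green cones, and those below 1.72, 6.14, 1.96 and 0.97. These libraries chose both sets, so that the levels are a description. The region near *Col19a1* passed above, with 428 and 251 in OFF-BC, 738 and 650.1 in ON-BC, 7.77 and 0 in blue cones, while green cones held 492 and 704. Whether its reads map to this region alone was not tested.

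The authors' peak lists, called in each library on its own from the same reads, were set beside the calls. A peak of both OFF-BC libraries and of no blue cone library overlapped 14419 regions (13.0%), a peak of both blue cone libraries and of no OFF-BC library 6531 (5.9%), and peaks of all 4 libraries 29315 (26.5%). Of the tested regions in the first class 70.1% were called higher in OFF-BC and none in blue cones, and in the second class 24.7% were called higher in blue cones and none in OFF-BC. Promoters were 6.7%, 6.1% and 41.4% of the 3 classes. The libraries held 60594 and 54772 peaks (OFF-BC) and 39700 and 52066 (blue cones). At a −log10 q of at least 10 the first class fell to 7826 regions, and the second to 4920.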

How the data were processed

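ATAC-seq libraries of OFF-BC and blue cones (2 each) were read together with the other 8 ATAC-seq and, for expression, 15 RNA-seq libraries. The authors aligned reads to GRCm38 with Bowtie2 or STAR, removed duplicates with Picard and fragments over a nucleosome-free length, called peaks per library with MACS2 and counted reads in regions and, with HTSeq, in genes (versions differ between the submitters' notes and the methods). The signal values in the deposited tables are counts that the authors divided by 1 size factor per library. All values above 0 were whole multiples of 1 read within 0.01, so reads could be recovered. The peak files give the −log10 of the q value as the authors' caller wrote it.

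Here, limma 3.58.1 (R 4.3.3) was fitted to log2(value + 1) over 12 ATAC-seq libraries in 6 populations (15 RNA-seq in 5), with filterByExpr on recovered reads. Its treat test against a log2 fold change of 1 was called at a Benjamini-Hochberg adjusted p below 0.05. edgeR 4.0.16 and DESeq2 1.42.0 on recovered reads are alternatives. The script was tested on simulated data. Regions were assigned to the nearest RefSeq start. Intervals and the floor of 3 reads cover counting error only. Members and lists were chosen with earlier results of these data known.

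The named regions are, per direction, the 8 distal and 5 promoter regions with the largest differences, the 8 whose gene was called the same way in RNA-seq (mean of at least 100 in the higher population) and the 4 whose gene was called the opposite way. For 13 gene lists they are the most accessible region of a gene, up to 5 called per direction and 3 not called. Peak files of the other populations were not used. OFF-BC and blue cones share replicate numbers but neither mice nor ages. ON-BC and OFF-BC libraries of 1 number share genotype and age, and whether they share a sort is not given in the sources used here. Results for a few genes of the lists are not reported here.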

Additional observations from a re-analysis of the deposited data

Results flagged for a closer look

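A test of the difference between contrasts passed for 1619 regions where OFF-BC minus blue cones lay above ON-BC minus green cones and for 1619 where it lay below. With edgeR the counts were 4041 and 1792, and with a pseudocount of 5 they were 1690 and 3237, so the balance of the directions depended on the method. Among the named regions, 6 passed this test. The difference between the contrasts (log2) was 6.56 near *Col19a1*, where green cones held 492 and 704, blue cones 7.77 and 0, and rods 4.67 and 0. Whether reads at this region map to it alone was not tested. The difference was -10.53 at *A430018G15Rik* (chr2:52444227-52444427), -7.04 at *Pask*, -7.74 near *Lonrf2*, -4.58 at *Mapkap1* and -3.50 at *Pde8b*. At *A430018G15Rik* the values were 0 and 0 in OFF-BC, 126 and 150 in blue cones, 88.1 and 64.4 in ON-BC, and 12.3 and 2.82 in green cones. *Pask* held 11.9 and 35.1 in ON-BC and *Lonrf2* 8.96 and 8.79, both with 0 reads in both OFF-BC libraries.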

How the results depend on the processing

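All 44 named regions kept their direction and their call under every one of the 18 alternatives that gave an adjusted p. Of 58 called most accessible regions of list genes, 27 did so and 31 were lost under at least 1. The 44 were chosen for the largest differences in the same libraries that the alternatives fit again, so that their calls are a weak check. Of all calls, quantile normalization kept 51.8% of those toward OFF-BC and 89.4% of those toward blue cones. Called sets never contained a region called the opposite way under an alternative. Counts moved more, for regions higher in OFF-BC and in blue cones in that order: 9486 and 7639 with quantile normalization, 10305 and 7982 with GC centring, 33344 and 12722 against 0, 22590 and 8671 with edgeR, and 10563 and 2166 with the 4 libraries alone, which have fewer degrees of freedom. With at least 20 reads in both libraries of OFF-BC or of blue cones 60497 regions were tested and 11721 were higher in OFF-BC. Leaving out 1 library gave 9733 to 15394 and 1537 to 3859 (9733 and 2088 without OFF-BC replicate 1, 1877 toward blue cones without blue cones replicate 1 and 1537 without blue cones replicate 2). DESeq2 gave 14329 and 2328. Regions differing from the ON-BC and green cone contrast numbered 3238, 4927 with a pseudocount of 5, 5833 with edgeR, and 1158 to 3539 without 1 library (1747 without OFF-BC replicate 1, 1170 without blue cones replicate 1, 1897 and 1158 without green cones replicate 1 or 2). With edgeR 19654 regions were higher in rods than in pan-BC. Regions under a peak of OFF-BC only fell to 7826 at the stricter q. Genes higher in OFF-BC ranged from 2866 to 3001 and in blue cones from 1767 to 1841 without 1 library. With a replicate block the counts were 17840 and 3348 (regions), 3080 (difference between contrasts) and 3032 and 1900 (genes). Replicate differences of OFF-BC and blue cones correlated at -0.002, and those of ON-BC and OFF-BC, which share ages by number, at 0. K50 shares in distal regions stayed at 45.7% to 51.8% toward blue cones and 14.1% to 17.0% toward OFF-BC over 10 alternatives. Causes of these movements were not tested. Depth limits weak regions: with 2 libraries per group, of which blue cones replicate 2 is the deepest of the 4, a difference at few reads may not be detectable.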

Other observations

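The pair of agouti regions that led toward blue cones had no read in any of the 4 ON-BC and OFF-BC libraries. At chr2:155019073-155019273 pan-BC held 19.2 and 11.4, rods 192 and 185, and green cones 96.0 and 101, and at chr2:155019780-155019980 pan-BC held 44.0 and 18.8. Over the whole table, 139 regions had no read in those 4 libraries, and 13 of them held 10 or more in both pan-BC libraries. This search was made after the agouti values were seen. Of the 13, 9 lie on chromosome 12 between positions 18208020 and 24252651, with pan-BC at 18.2 to 99.8 and rods and cones at no more than 19.7. The submitters' labels give pan-BC the same genotype as ON-BC and OFF-BC, while the study's own table of samples lists the ATAC-seq pan-BC mice without the *Grm6*-YFP transgene. Whether genotype or strain plays a part was not tested. A separate set of 234 regions had no read in either OFF-BC library and 30 or more in both ON-BC libraries.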
